A study of Rattus norvegicus with 12 samples.

Results

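The neurotrophic factors and receptors described here are Bdnf, Ntf3, Gdnf, Artn, Nrtn, Gfra1, Ret and Vgf, followed across 4 groups of rat Schwann cell libraries. They were chosen by gene symbol: 7 of the 8 symbols have a row in the deposited table of 30957 genes, and no row carries the symbol Vgf. A row named LOC100909521 is described in the table as neurosecretory protein VGF-like and lies between Ap1s1 and Mogat3, the genes that flank Vgf in the RefSeq assembly GRCr8. That row was used in the place of Vgf, outside the rule of choice by symbol, and is called the VGF-like gene below.

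The tested cells were rat Schwann cells cultured with macrophages of 3 kinds, with 3 libraries per group. MiaTAM stands for tumour-associated macrophages (TAMs) induced by supernatant of the pancreatic cancer line MIA PaCa-2, BxTAM for those induced by supernatant of another pancreatic cancer line, BxPC-3, and MDM for monocyte-derived macrophages, titled PBMC in the labels and marked there as untreated. The remaining 3 libraries are the Schwann cells alone, untreated, titled Rsc96 in the labels and headed HSC96 in the table. Rsc96 was taken as the immortalised rat Schwann line RSC96, and the labels give neither the macrophages' species nor the length or format of the co-culture, nor whether macrophages were removed before lysis. Separate cultures are not stated for libraries within a group, so p-values measure only the spread between these libraries, which may be technical. In such bulk samples, fewer cells of a type and less RNA per cell cannot be told apart.

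Library depth was 16555215 to 21506669 counts. Of 18 Schwann markers, 16 have a row and 11 entered the tests. Cdh19 was at 0, and Sox10 had 1 count and S100b 43 counts in all 12 libraries, so these defining Schwann markers were at or near 0 in cells labelled as Schwann cells. Vim, Pmp22 and Ncam1 were present in every group. All 10 neuron markers were under 1 CPM (counts scaled to a common depth, defined below) in every group, and 4 of them were at 0.

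Neurotrophins such as BDNF and neurotrophin-3 are secreted proteins that keep neurons alive and act through TRK receptor kinases and the p75 receptor (gene Ngfr). GDNF, artemin and neurturin form another family: each binds a GFRA co-receptor on the cell surface, and the complex activates the receptor kinase RET. Schwann cells of injured nerve are known to make BDNF and GDNF. VGF is a secreted precursor of several peptides made by neurons and endocrine cells.

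Promoter windows of the 3 genes with enough counts to test are shown because their levels are compared throughout the results. They are RefSeq GRCr8 sequences of the 250 bases before an annotated start, read 5′ to 3′ on the gene's strand, and all 8 symbols matched windows there, Vgf under its own symbol. Capitals mark the cAMP response element (CRE) TGACGTCA or its core TGACG, read on either strand, where the core appears as CGTCA on the reverse strand. The Vgf window is chr12:25277021-25277270 (minus strand), the Gdnf window chr2:58621077-58621326 (plus strand), and the Bdnf window, 1 of 6 for this gene and the only one of them with the core, chr3:116637608-116637857 (plus strand).
Vgf: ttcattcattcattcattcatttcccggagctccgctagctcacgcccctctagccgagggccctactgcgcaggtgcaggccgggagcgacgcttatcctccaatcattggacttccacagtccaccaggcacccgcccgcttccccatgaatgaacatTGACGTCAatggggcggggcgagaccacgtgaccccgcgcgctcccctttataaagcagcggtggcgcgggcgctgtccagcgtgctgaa
Gdnf: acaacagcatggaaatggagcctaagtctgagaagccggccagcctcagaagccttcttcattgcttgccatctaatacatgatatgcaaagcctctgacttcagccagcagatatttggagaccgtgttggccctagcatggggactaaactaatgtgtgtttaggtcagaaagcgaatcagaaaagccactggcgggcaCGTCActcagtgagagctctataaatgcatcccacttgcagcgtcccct
Bdnf: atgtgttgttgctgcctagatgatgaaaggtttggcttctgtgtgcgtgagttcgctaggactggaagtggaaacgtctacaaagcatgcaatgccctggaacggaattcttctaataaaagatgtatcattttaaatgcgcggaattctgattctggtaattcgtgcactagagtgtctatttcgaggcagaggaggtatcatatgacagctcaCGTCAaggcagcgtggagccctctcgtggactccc
The whole CRE lay 90 bases before the Vgf start and contains the core on both strands. It is in 1.59% of 33465 windows of the same length, while the core is in 18.2% of them. The core lay 49 bases before the Gdnf start, 35 before the Bdnf start shown and 121 before the Artn start. An E-box CACGTG, found in 5.59% of windows, lay 65 bases before the Vgf start, and an AP-1 motif TGANTCA, found in 6.34%, lay 152 bases before another Bdnf start. The windows of Ntf3, Nrtn, Gfra1 and Ret held none of these motifs. A match of letters is a description only. The counts are summed per gene, so the Bdnf start in use cannot be seen.

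Bdnf, the neurotrophin with the most counts, was higher in all 3 co-cultures than in cells alone, and higher with either kind of TAM than with MDM. Its row spans chr3:100768637-100819210 in Rnor_6.0. Levels are given as CPM, each library's counts scaled to a common depth by TMM. Bdnf had 36.46, 37.31 and 39.96 CPM in MiaTAM, 40.67, 41.47 and 42.86 CPM in BxTAM, 32.76, 27.37 and 32.39 CPM in MDM, and 26.77, 26.32 and 25.45 CPM in cells alone. The 6 TAM libraries all lay above the 3 MDM libraries, which all lay above the 3 libraries of cells alone. The smallest gap is between MDM library 2 and library 1 of cells alone.

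Against cells alone, Bdnf rose by 0.53 ± 0.07 on the log2 scale in MiaTAM (1.45-fold; adjusted p = 1.09e-06), by 0.67 ± 0.07 in BxTAM (1.59-fold; adjusted p = 4.55e-08) and by 0.24 ± 0.07 in MDM (1.18-fold; adjusted p = 0.00577). Here and below the error of a change is its standard error, from 3 libraries against 3, and adjusted p-values are Benjamini-Hochberg values over 12360 genes from the quasi-likelihood test of edgeR. Against MDM, Bdnf rose by 0.30 ± 0.07 in MiaTAM (adjusted p = 0.00161) and by 0.43 ± 0.07 in BxTAM (adjusted p = 4.81e-05). The order of the means was BxTAM, MiaTAM, MDM and cells alone. The neighbours BxTAM and MiaTAM did not differ past the threshold of 0.05: MiaTAM minus BxTAM was -0.14 ± 0.07 (95% interval -0.28 to 0.00303, adjusted p = 0.147), though their libraries did not overlap. Groups whose libraries do not overlap were found for 67.2% of tested genes between MiaTAM and cells alone, 65.9% between BxTAM and cells alone, 68.9% between MDM and cells alone, 49.0% between MiaTAM and MDM, 47.9% between BxTAM and MDM, and 38.6% between MiaTAM and BxTAM.

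As a sum, macrophage markers were higher in the co-cultures than in cells alone, as was Bdnf. The summed level of 24 such markers was 20.4 to 21.85 CPM in MiaTAM, 18.41 to 19.85 CPM in BxTAM, 14.94 to 16.47 CPM in MDM and 9.998 to 11.59 CPM in cells alone. C1qa, Marco and Tyrobp were at 0 in all 12 libraries, and 20 of the 24 were under 1 CPM in every group. Most of the sum was Csf1r and Cd14, with 1426 and 1380 counts in all 12 libraries, ahead of Fcgr2b with 254 and Cd68 with 249. Cells alone also held Csf1r, Cd14 and Cd68 at 187, 247 and 23 counts. Of 5 tested markers, 3 were called higher in each co-culture against cells alone and 2 were not called. That is 60% called, beside 65.1% of all genes called in either direction in MiaTAM, 60.9% in BxTAM and 65.1% in MDM. The share of all genes called higher was 31.4%, 30.0% and 32.0%. The part of macrophage RNA in the Bdnf result was not tested.

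**Figure D1:**
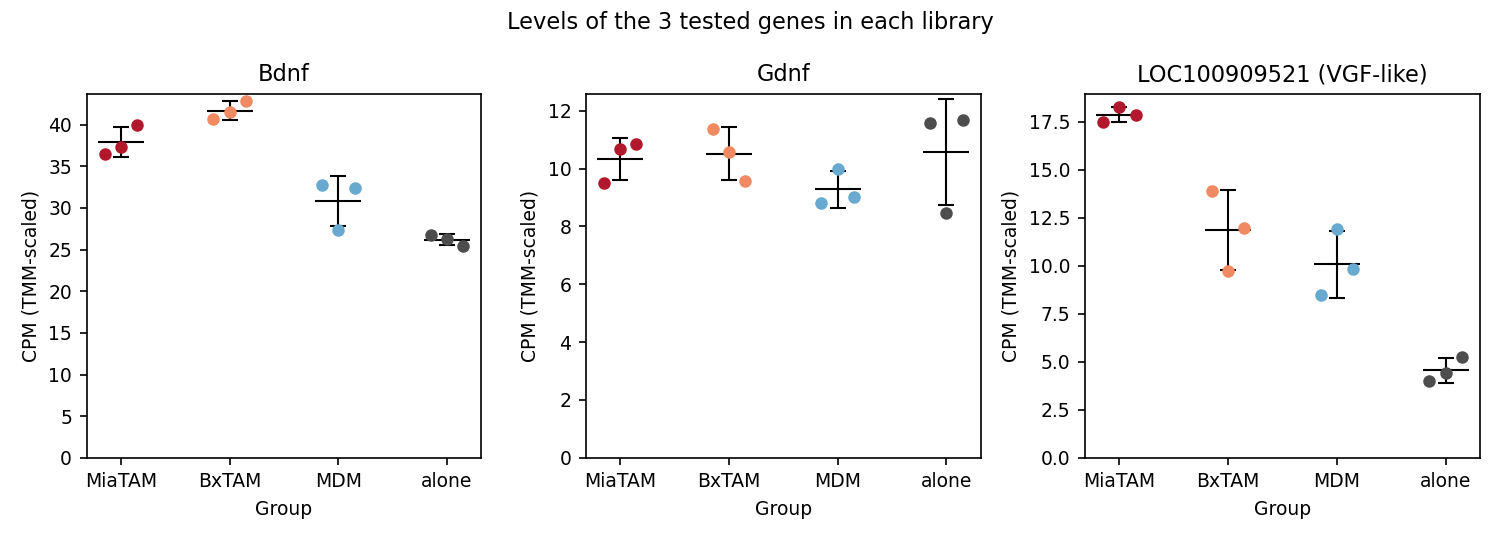
Levels of Bdnf, Gdnf and the VGF-like gene in CPM (linear axes from 0) in each of 12 libraries, with the groups in the order MiaTAM, BxTAM, MDM and alone. Points are libraries and bars are the mean ± SD of 3. The Bdnf groups separate except where MiaTAM and BxTAM lie close at 36.46 to 42.86 CPM, the Gdnf groups overlap, and the VGF-like gene is lowest in cells alone at 3.98 to 5.27 CPM.

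The other neurotrophin among the 8 genes, Ntf3, had no count in any of the 12 libraries, a group total of 0 that allows up to 0.0553 CPM in MiaTAM and BxTAM, 0.0527 CPM in MDM and 0.0540 CPM in cells alone (3 counts over the group). Such floors and the counting intervals below cover counting error only. Ntf3 could not be compared between groups at this depth.

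Gdnf, the founding ligand of its family, did not pass the test in any of the 6 comparisons. Its row spans chr2:56887987-56910238. Gdnf had 9.49, 10.67 and 10.84 CPM in MiaTAM, 11.38, 10.58 and 9.56 CPM in BxTAM, 8.82, 9.995 and 9.01 CPM in MDM, and 11.59, 8.47 and 11.66 CPM in cells alone. The 4 groups overlapped, and library 2 of cells alone was the lowest of all 12 while the other 2 of that group were the highest.

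On the log2 scale Gdnf differed from cells alone by -0.03 in MiaTAM (95% interval -0.27 to 0.21, adjusted p = 0.83), by -0.0045 in BxTAM (-0.24 to 0.23, adjusted p = 0.976) and by -0.19 in MDM (-0.43 to 0.0541, adjusted p = 0.163). Against MDM it differed by 0.16 in MiaTAM (-0.0866 to 0.40, adjusted p = 0.304) and by 0.18 in BxTAM (-0.0598 to 0.42, adjusted p = 0.242), and MiaTAM minus BxTAM was -0.03 (-0.26 to 0.21, adjusted p = 0.898). These intervals leave room for changes of either sign and do not show equal levels. Without library 2 of cells alone, MDM minus cells alone was -0.32 ± 0.10 and passed the test (adjusted p = 0.0127).

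Artn, which encodes artemin, had a few counts in the co-cultures and none in cells alone. Its row spans chr5:136759717-136762986. It had 0, 4 and 2 counts in MiaTAM, 5, 3 and 2 in BxTAM, 0, 0 and 5 in MDM, and 0, 0 and 0 in cells alone. All 3 BxTAM libraries held a count, and all MDM counts came from library 3.

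Against a floor of 3 counts over the 3 libraries of cells alone, Artn was at least 2.05-fold higher in MiaTAM and at least 3.41-fold higher in BxTAM by point values. Counting error lowers these: the lower 95% counting limit of the ratio to cells alone was 1.21 in MiaTAM, 2.3 in BxTAM and 0.894 in MDM. The MDM limit includes no change. None of these values takes in the spread between libraries. Artn did not pass the filter on low counts and has no adjusted p in the main test. In the same test without that filter, adjusted p was 0.0528 for MiaTAM, 0.0123 for BxTAM and 0.0861 for MDM against cells alone. Against MDM, the ratio of counts per depth was 1.26 in MiaTAM (95% counting interval 0.32 to 5.22) and 2.1 in BxTAM (0.653 to 7.82), so neither difference was detectable at this depth.

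Nrtn, which encodes neurturin, had 1 count in all 12 libraries, in MiaTAM library 3. Its row spans chr9:10305470-10306597. The receptor kinase gene Ret, at chr4:150202058-150244372, also had 1 count in all, again in MiaTAM library 3. Gfra1, the GDNF co-receptor gene at chr1:279207586-279277339, had 0, 1 and 0 counts in MiaTAM, 4, 0 and 0 in BxTAM, 1, 0 and 1 in MDM, and 0, 2 and 1 in cells alone.

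Gfra1 counts thus stood at 10 in all, in 6 libraries, with at least 1 from each group. Against the 3 counts of cells alone, the ratio per depth was 0.341 in MiaTAM (0.0065 to 4.25), 1.37 in BxTAM (0.231 to 9.32) and 0.651 in MDM (0.0543 to 5.68). No difference in Ret, Nrtn or Gfra1 was detectable at this depth. The Gdnf ligand row held 559, 570, 522 and 589 counts in MiaTAM, BxTAM, MDM and cells alone over the same libraries.

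The VGF-like gene had the largest changes of the 3 tested genes against cells alone, and was higher with MiaTAM than in every other group. Its row, ENSRNOG00000001416, spans chr12:22677607-22680630. It had 17.48, 18.26 and 17.84 CPM in MiaTAM, 13.9, 9.72 and 11.98 CPM in BxTAM, 8.48, 11.93 and 9.85 CPM in MDM, and 3.98, 4.44 and 5.27 CPM in cells alone. MiaTAM lay above and cells alone lay below all other libraries, and BxTAM overlapped MDM. Of all tested genes, 38.6% had no overlap between MiaTAM and BxTAM and 49.0% had none between MiaTAM and MDM. Against cells alone the share was 67.2% for MiaTAM, 65.9% for BxTAM and 68.9% for MDM.

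Against cells alone the VGF-like gene rose by 1.96 ± 0.14 on the log2 scale in MiaTAM (3.90-fold; adjusted p = 9.09e-11), by 1.38 ± 0.14 in BxTAM (2.60-fold; adjusted p = 5.43e-08) and by 1.14 ± 0.15 in MDM (2.20-fold; adjusted p = 8.95e-07). It rose by 0.82 ± 0.12 in MiaTAM against MDM (1.77-fold; adjusted p = 1.4e-05) and by 0.59 ± 0.12 in MiaTAM against BxTAM (1.5-fold; adjusted p = 0.00134). BxTAM minus MDM was 0.24 ± 0.12 (95% interval -0.0227 to 0.50, adjusted p = 0.15). That comparison turned on single libraries: it passed at 0.37 without MDM library 2 (adjusted p = 0.0423) and at 0.36 without BxTAM library 2 (adjusted p = 0.0355), and was 0.14 without MDM library 1 (adjusted p = 0.468) and 0.11 without BxTAM library 1 (adjusted p = 0.582). The macrophage marker sum had the same order of groups, MiaTAM first and cells alone last, and its part in the result was not tested.

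**Figure D2:**
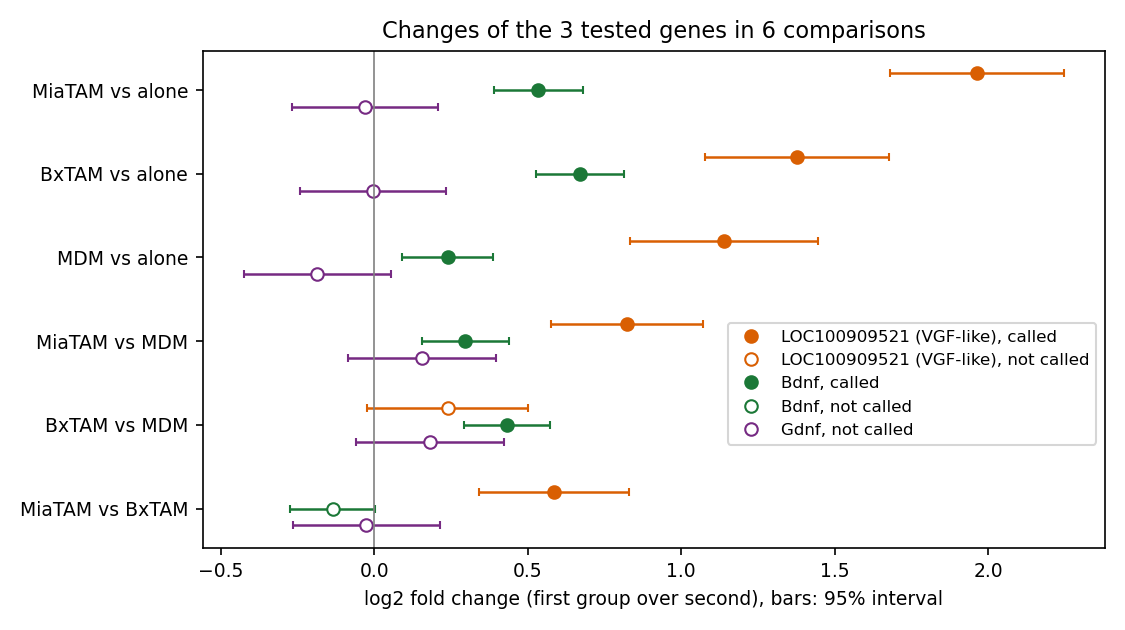
Log2 fold changes (first group over second) of the VGF-like gene, Bdnf and Gdnf in 6 comparisons. Points are estimates from 3 libraries against 3, bars are 95% intervals, and filled points have an adjusted p under 0.05. The VGF-like gene reaches 1.96 in MiaTAM against cells alone, while all Gdnf intervals include 0.

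Of the 8 genes, 3 entered the tests, and Bdnf and the VGF-like gene were the ones called. The 3 comparisons with cells alone share those control libraries, and each called both genes higher, 2 of 3 tested. Over all tested genes the share called in either direction was 65.1% for MiaTAM, 60.9% for BxTAM and 65.1% for MDM against cells alone, the share called higher was 31.4%, 30.0% and 32.0%, and the share called lower 33.7%, 30.9% and 33.1%. Against MDM, 2 of 3 were called in MiaTAM and 1 of 3 in BxTAM, beside 41.0% and 34.7% of all genes. Of all genes, 19.8% were called higher and 21.1% lower in MiaTAM against MDM, and 17.4% higher and 17.3% lower in BxTAM against MDM. Between MiaTAM and BxTAM 1 of 3 was called, beside 24.2% of all genes, with 11.0% called higher and 13.3% lower. With so many genes called, a count of 1 or 2 among 3 does not set these genes apart.

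Per length, Gdnf had the highest level of the 3 genes. On the FPKM scale Gdnf ranged from 12.25 to 16.75 over 12 libraries, Bdnf from 4.11 to 6.91 and the VGF-like gene from 1.52 to 6.94. Gdnf was above Bdnf in every library. The FPKM ratio of Gdnf to Bdnf within a library averaged 2.42 in MiaTAM, 2.25 in BxTAM, 2.71 in MDM and 3.6 in cells alone. The VGF-like gene was above Bdnf in 3 of 3 MiaTAM libraries, 0 of 3 BxTAM, 1 of 3 MDM and 0 of 3 libraries of cells alone. The gene model behind the FPKM value was 700 bases for Gdnf, 6224 for Bdnf and 2638 for the VGF-like gene, so an incomplete model would move the order.

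**Figure D3:**
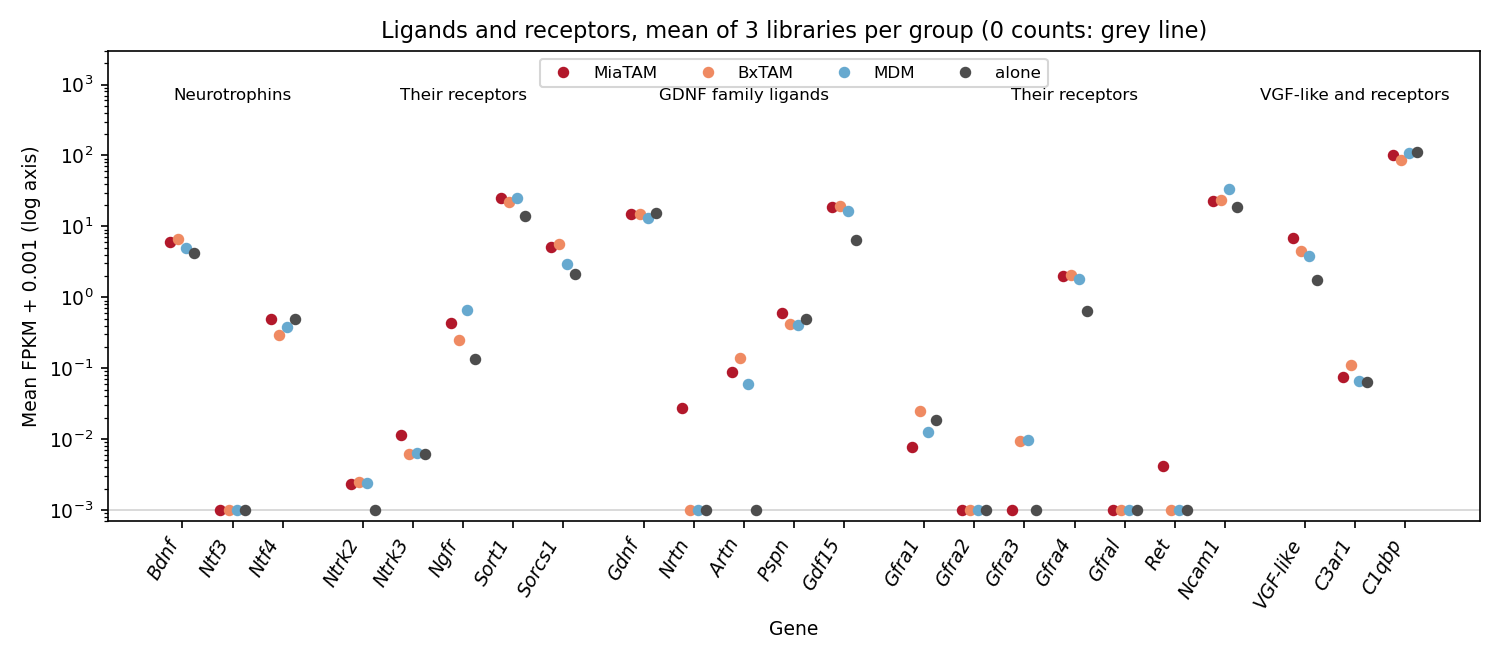
Mean FPKM + 0.001 of ligand and receptor genes in each group (log axis, 3 libraries per group), with genes at 0 on the grey line. Gdnf and Bdnf lie above 1 FPKM in every group, while Ntrk2, Ntrk3, Gfra1 and Ret lie near the bottom of the plot.

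The other genes of both receptor systems were taken from a fixed list each. Of 13 neurotrophin and receptor genes, 12 have a row and 6 entered the tests. Of these, 5 rose in MiaTAM, 4 in BxTAM and 4 in MDM against cells alone, with none lower, or 83.3%, 66.7% and 66.7% called, beside 65.1%, 60.9% and 65.1% of all genes. Against MDM, 3 rose and 0 fell in MiaTAM, while 3 rose and 2 fell in BxTAM, and 2 rose in MiaTAM against BxTAM. These are 50%, 83.3% and 33.3% called, beside 41.0%, 34.7% and 24.2% of all genes. Their median log2 change was 1.03 in MiaTAM, 0.711 in BxTAM and 0.365 in MDM against cells alone, where the median of all genes was within 0.00894 of 0 in any comparison.

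Among receptors, the TRK genes Ntrk2 and Ntrk3 had 3 and 5 counts in all 12 libraries, and neither was tested. Ngfr, the p75 receptor gene, was low, at 1.41 ± 0.684 CPM in MiaTAM, 0.815 ± 0.196 CPM in BxTAM, 2.16 ± 0.692 CPM in MDM and 0.428 ± 0.229 CPM in cells alone (SD, n = 3 each). Against cells alone it rose by 1.73 ± 0.42 in MiaTAM (adjusted p = 0.00125) and by 2.34 ± 0.38 in MDM (adjusted p = 2.02e-05), while BxTAM was at 0.91 ± 0.47 (adjusted p = 0.104). It fell by 1.43 in BxTAM against MDM (adjusted p = 0.00245). Sort1, which encodes the proneurotrophin receptor sortilin, rose by 0.89 in MiaTAM, 0.70 in BxTAM and 0.90 in MDM against cells alone (adjusted p = 1.25e-12, 7.58e-11 and 1.05e-12). Sorcs1, a relative of sortilin, rose by 1.29, 1.43 and 0.49 in the same comparisons (adjusted p = 4.13e-09, 8.33e-10 and 0.00146).

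Of 13 genes of the GDNF family and its receptors, all have a row and 4 entered the tests: Gdnf, Gfra4, Ncam1 and Gdf15. Gfra4, Ncam1 and Gdf15 rose in each co-culture against cells alone, and none of the 4 was called between MiaTAM and BxTAM. The share called against cells alone was thus 75% each time, beside 65.1% of all genes in MiaTAM, 60.9% in BxTAM and 65.1% in MDM. Between MiaTAM and BxTAM, 24.2% of all genes were called. Gfra4, the co-receptor gene for persephin, rose by 1.65 ± 0.24 in MiaTAM, 1.70 ± 0.24 in BxTAM and 1.497 ± 0.24 in MDM (adjusted p = 4.95e-06, 3.46e-06 and 1.9e-05). It averaged 2.04 ± 0.372 CPM in MiaTAM, 2.10 ± 0.0769 CPM in BxTAM, 1.83 ± 0.112 CPM in MDM and 0.644 ± 0.143 CPM in cells alone (SD, n = 3 each). Gfra2 and Gfral had 0 counts, and Gfra3 had 2.

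Ncam1, an adhesion molecule that also serves as a GDNF receptor without RET, averaged 134.8 CPM in MiaTAM, 138.1 CPM in BxTAM, 196.2 CPM in MDM and 107.4 CPM in cells alone. It rose by 0.33 in MiaTAM, 0.36 in BxTAM and 0.87 in MDM against cells alone (adjusted p = 3.35e-05, 1.15e-05 and 2.49e-11). Against MDM it fell by 0.54 in MiaTAM and by 0.51 in BxTAM (adjusted p = 1.59e-07 and 4.39e-07).

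Genes that cut or package trophic precursors form a list of 18, of which 10 were tested. Of these, 7 rose and 1 fell in MiaTAM, 6 rose and 2 fell in BxTAM and 8 rose and 1 fell in MDM against cells alone. That is 80%, 80% and 90% called, beside 65.1%, 60.9% and 65.1% of all genes. Furin, a protease that cuts proneurotrophins, averaged 125.2 ± 4.89 CPM in MiaTAM, 104.5 ± 3.39 CPM in BxTAM, 110.7 ± 8.30 CPM in MDM and 61.84 ± 1.56 CPM in cells alone (SD, n = 3 each), and rose 2.02-fold, 1.69-fold and 1.79-fold against cells alone. Plat, the tissue plasminogen activator, rose 3.23-fold, 2.54-fold and 3.51-fold. The largest adjusted p of these 6 changes is 3e-10. Genes of the regulated secretory pathway differed in level. Pcsk1, Chga and Scg3 had 0 counts in all libraries. Cpe, the carboxypeptidase of that pathway, rose 1.91-fold in MiaTAM, 1.87-fold in BxTAM and 2.23-fold in MDM against cells alone (adjusted p = 3.41e-12, 7.86e-12 and 1.37e-13). The granin gene Scg2 had 632 counts in all and entered the tests. Its fall in BxTAM against cells alone was lost with upper-quartile factors and with the DESeq2 test, which left 1 gene of the list lower there.

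Of 13 neurotrophic cytokine and receptor genes, 9 were tested. Against cells alone, 4 rose and 3 fell in MiaTAM, 4 rose and 2 fell in BxTAM, and 2 rose and 5 fell in MDM. These are 77.8%, 66.7% and 77.8% called, beside 65.1%, 60.9% and 65.1% of all genes. The MDM fall of Cntf was lost with either other set of scaling factors, the DESeq2 test or the replicate block, and the MiaTAM fall of Il6r with upper-quartile factors. Lif, leukaemia inhibitory factor, averaged 30.75 ± 2.23 CPM in MiaTAM, 26.01 ± 3.28 CPM in BxTAM, 16.19 ± 0.805 CPM in MDM and 17.54 ± 0.671 CPM in cells alone (SD, n = 3 each). Lif rose by 0.92 in MiaTAM and 0.68 in BxTAM against MDM (adjusted p = 3.73e-08 and 3.16e-06). Osmr, the oncostatin M receptor gene, averaged 32.93 ± 1.42 CPM in MiaTAM, 32.47 ± 1.48 CPM in BxTAM, 26.38 ± 1.08 CPM in MDM and 50.37 ± 0.522 CPM in cells alone (SD, n = 3 each). It fell by 0.61 in MiaTAM, 0.63 in BxTAM and 0.93 in MDM against cells alone (adjusted p = 1.29e-08, 9.1e-09 and 2.46e-11), and rose by 0.32 in MiaTAM and 0.30 in BxTAM against MDM (adjusted p = 0.000298 and 0.000754). Clcf1, a cytokine that acts through the CNTF receptor, fell by 1.21 in MiaTAM, 0.72 in BxTAM and 0.95 in MDM against cells alone (adjusted p = 7.99e-10, 9.03e-07 and 1.81e-08).

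Other trophic factors form a list of 13 with 8 tested. Among these, 5 rose in MiaTAM, 6 in BxTAM and 6 in MDM against cells alone, with none lower. The shares called were 62.5%, 75% and 75%, beside 65.1%, 60.9% and 65.1% of all genes. Manf, an endoplasmic reticulum protein with neurotrophic activity, averaged 100.2 ± 2.96 CPM in MiaTAM, 97.64 ± 2.67 CPM in BxTAM, 163.5 ± 10.9 CPM in MDM and 84.15 ± 6.45 CPM in cells alone (SD, n = 3 each). It fell by 0.71 in MiaTAM and 0.74 in BxTAM against MDM (adjusted p = 2.21e-09 and 1.03e-09), unlike Bdnf, which rose in both. Nrg1, which encodes the Schwann cell growth factor neuregulin, rose by 0.79 in MiaTAM and 0.77 in BxTAM against cells alone (adjusted p = 1.31e-05 and 2.17e-05). It was not called against MDM with either kind of TAM, so the rise does not set TAMs apart from MDM.

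**Figure D4:**
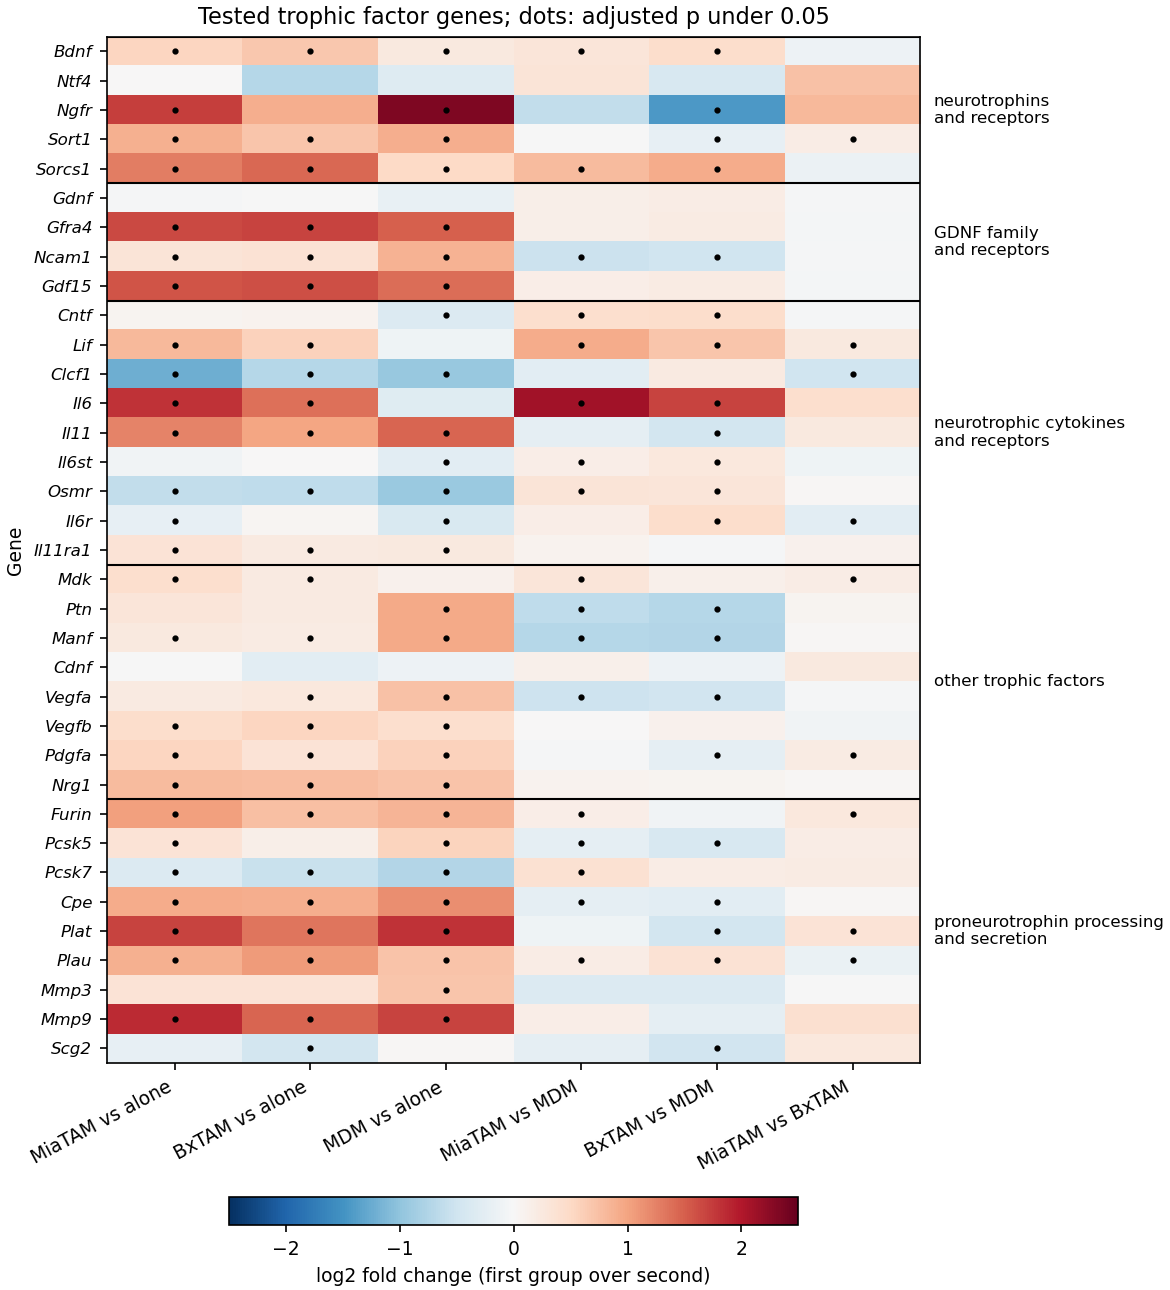
Log2 fold changes (first group over second) of tested genes of 5 trophic factor lists in 6 comparisons, with red higher and blue lower in the first group, and dots at an adjusted p under 0.05. Bdnf is red in both comparisons of TAMs with MDM, where Ncam1 and Manf are blue, and Gdnf has no dot.

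Lists of TRK and RET adaptors, of p75 signalling partners and of transcriptional regulators of trophic factors held called genes of both directions. Of 21 tested adaptor genes of TRK and RET, 10 rose and 2 fell in MiaTAM, 9 rose and 2 fell in BxTAM, and 10 rose and 4 fell in MDM against cells alone. Of 7 tested p75 partners, 3 rose and 2 fell in MiaTAM, 3 rose and 2 fell in BxTAM, and 3 rose and 3 fell in MDM. With upper-quartile scaling the adaptor genes that fell were 1 in MiaTAM, 1 in BxTAM and 2 in MDM, and 1 p75 partner fell in MiaTAM. Of 22 tested transcriptional regulators, 6 rose and 7 fell in MiaTAM, 6 rose and 7 fell in BxTAM, and 9 rose and 6 fell in MDM. The shares called in MiaTAM, BxTAM and MDM were 57.1%, 52.4% and 66.7% of the adaptors, 71.4%, 71.4% and 85.7% of the p75 partners and 59.1%, 59.1% and 68.2% of the regulators, beside 65.1%, 60.9% and 65.1% of all genes.

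Jun, an AP-1 factor of the Schwann cell injury response, rose by 0.35 in MiaTAM and 0.33 in BxTAM against cells alone (adjusted p = 6.68e-07 and 1.7e-06). Its level in MDM is not given here, so these rises do not set TAMs apart from MDM. Egr1, an immediate early gene, averaged 100.9 ± 3.99 CPM in MiaTAM, 90.19 ± 3.09 CPM in BxTAM, 260.0 ± 5.81 CPM in MDM and 107.5 ± 2.66 CPM in cells alone (SD, n = 3 each). Egr1 thus stood apart in MDM, and fell by 1.36 in MiaTAM and by 1.53 in BxTAM against MDM (adjusted p = 3.46e-15 and 3.23e-16). Of the 3 genes listed as receptors of VGF peptides, 2 were tested (C1qbp and Hspa8), and C1qbp was the one called. C1qbp fell by 0.13 in MiaTAM and 0.33 in BxTAM against cells alone (adjusted p = 0.0132 and 1.31e-06), and the MiaTAM call was lost with upper-quartile scaling. The share called was 50% in MiaTAM, 50% in BxTAM and 0% in MDM, beside 65.1%, 60.9% and 65.1% of all genes. C3ar1 had 34 counts in all, and the Hspa8 row is uncertain because this gene has near-identical copies.

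For each tested gene, the genes with the most similar profile were those with the smallest root mean square difference of centred log2 CPM over the 12 libraries. For Bdnf these were Cnpy4 (0.0659), Thbs2 (0.0742) and Plxna2 (0.0858), where the median over 10774 genes was 0.326. For the VGF-like gene they were Serinc2 (0.199), Srgn (0.202) and Fgfr1 (0.209), with a median of 0.745. For Gdnf they were Tmem107 (0.0912), Ywhag (0.0992) and Gtpbp8 (0.107), with a median of 0.242. The libraries share groups, so a likeness describes a group pattern only.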

How the data were processed

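Messenger RNA was sequenced in 12 libraries of rat Schwann cells, in 4 groups read from the sample labels. The mRNA library kit was stranded, per the labels' protocols. CASAVA, HISAT2, StringTie 1.3.0 and Rnor_6.0 are named per the submitters' processing notes. For the counting tool, the annotation release and the strand setting, nothing is given in the sources used here.

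Each gene of the deposited table has whole-number counts without normalization, and the authors' FPKM values, scaled by gene length and library total. Gene length implied by both columns varied by at most 0.0945% within a gene.

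Counts were tested in edgeR 4.0.16 (R 4.3.3). filterByExpr by group kept 12360 of 17963 genes with a count, TMM factors were 0.98 to 1.01, and 1 quasi-likelihood fit took all 12 libraries with 1 mean per group. Standard errors are the change over the square root of F. A gene was called at an adjusted p under 0.05. The script was tested on simulated counts. Alternatives used DESeq2 1.42.0 and limma 3.58.1, limma on log2(FPKM + 1). Of 202 list symbols, 197 had a row. No library was a duplicate of another of its group (chi-square per degree of freedom 2.37 to 7.39).

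The genes, lists and tests were chosen with earlier results of these data known. Genes named beside the 8 follow a rule: up to 4 per list and comparison with the smallest adjusted p among called genes whose higher group averaged 1 CPM or more, and the 3 most similar profiles per gene. A gene named in one comparison is also given in others, and some genes that fit the rule are not reported. Cell type markers were named where they were at 0, near 0 or among the largest of a sum. List genes named outside this rule (Ntrk2, Ntrk3, Gfra2, Gfra3, Gfral, Pcsk1, Chga, Scg2, Scg3, Cntf, C3ar1 and Hspa8) show receptors and low genes and were chosen after their values were seen.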

Additional observations from a re-analysis of the deposited data

Results flagged for a closer look

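The VGF-like gene was 0.5854 higher on the log2 scale in MiaTAM than in BxTAM (1.5-fold; edgeR quasi-likelihood test, adjusted p = 0.00134), a direct test between co-cultures with the 2 kinds of TAM. It was higher in 3 of 3 MiaTAM libraries than in any BxTAM library. Libraries of these 2 groups did not overlap for 38.6% of all tested genes. The macrophage marker sum was also higher, at 20.4 to 21.85 CPM in MiaTAM and 18.41 to 19.85 CPM in BxTAM, and its part in the difference was not tested. Bdnf and Gdnf did not pass the same test.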

How the results depend on the processing

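Over 13 alternatives per comparison (DESeq2 size factors and upper-quartile factors in edgeR, no filter on low counts, the DESeq2 Wald test, limma on log2(FPKM + 1), the 6 libraries of a comparison alone, a replicate block, and each library left out in turn), all calls of Bdnf and the VGF-like gene against cells alone and of both in MiaTAM against MDM, of Bdnf in BxTAM against MDM, and of the VGF-like gene in MiaTAM against BxTAM kept direction and stayed past the threshold. Gdnf, which was not called, changed sign. In BxTAM against cells alone its log2 change was 0.001233 with DESeq2 size factors, 0.05114 with upper-quartile factors, and -0.1361 to 0.08407 over left-out libraries. In MiaTAM against cells alone it was 0.04327 with upper-quartile factors and -0.1589 to 0.06126 over left-out libraries, and in MiaTAM against BxTAM -0.08808 to 0.0362. The cause was not tested. The number called of 3 genes in BxTAM against MDM was 1 to 2 over left-out libraries, and over all genes MiaTAM against BxTAM gave 1933 to 3113 (1978 without BxTAM library 2, 1976 without BxTAM library 3 and 1933 without MiaTAM library 2, against 2997). Same-numbered libraries did not deviate together (18 pairs, r from -0.127 to 0.0892), and the replicate block changed no call of the 3 genes. The labels state no pairing, and with 3 libraries per group a weak shared effect could be missed. Of 283 calls of genes of the 9 lists over 6 comparisons, 1 was lost with DESeq2 size factors, 18 with upper-quartile factors, 24 with the DESeq2 test and 4 with the block, and none changed direction. In MDM against cells alone the regulators stood at 9 higher and 4 lower with upper-quartile factors and 7 and 5 with the DESeq2 test. With the block, MiaTAM against cells alone gave 8021 called genes, against 8041 without it. With upper-quartile factors the median log2 change of all genes lay within 0.0676 of 0. Depth limits Artn, Gfra1, Nrtn, Ret and Ntf3 to counts without a firm comparison.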
